A study of Homo sapiens with 68 samples.

Results

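The genes described here are 10 chaperones and effectors of the unfolded protein response, measured in A673 cells, a human Ewing sarcoma line that carries the EWS/FLI translocation. They are the chaperones HSPA5, HSP90B1 and CALR, the disulphide isomerases PDIA4 and PDIA6, the BiP co-factors DNAJB9 and SDF2L1, the degradation factors HERPUD1 and SEL1L, and the transcription factor XBP1. They were chosen by name, 10 of 11882 genes with an annotated probe set, and together have 26 of the 22215 probe sets tested. Where a gene had several probe sets, the one with the highest mean signal was used.

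The cells were profiled on 68 Affymetrix arrays after treatment with ARA-C, doxorubicin or puromycin, or with the DMSO vehicle alone. The study asked whether ARA-C changes expression across the genome as loss of EWS/FLI does. Doxorubicin and puromycin were included to ask whether other cytotoxic agents do so too. Puromycin releases unfinished peptides from the ribosome, while ARA-C (cytarabine), a nucleoside analogue, stops DNA synthesis and the anthracycline doxorubicin poisons topoisomerase II. Each compound was given at its EC50 and at 2 times its EC50, and RNA was taken after 24 hours and on days 3 and 5. ARA-C was used at 0.17 uM and 0.34 uM with 3 arrays at each time. Doxorubicin was used at 59.88 nM and 119.76 nM with 3 arrays at each time, except for 2 at 119.76 nM on day 5. Puromycin at 0.09 uM had 3 arrays at 24 hours and at 3 days and 2 usable arrays on day 5, and puromycin at 0.18 uM had 3 arrays at 24 hours, 3 at 3 days and 1 on day 5. The vehicle had 6 arrays at 24 hours, 5 at 3 days and 6 on day 5. All groups were this 1 line in the same serum-containing medium, so they carry no information on other Ewing lines. The labels call the samples biological replicates but name no separate cultures, and the p-values measure the spread between these arrays only.

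As background, proteins that enter the endoplasmic reticulum (ER) fold there with the help of BiP (the product of HSPA5), its co-factors, lectin chaperones and disulphide isomerases. Misfolded proteins release BiP from the sensors ATF6, IRE1 and PERK. Cleaved ATF6 and the XBP1 factor made after IRE1 splices its mRNA then turn on chaperone and degradation genes, while PERK slows translation and favours ATF4 and its target DDIT3 (CHOP). No value here tells spliced from unspliced XBP1 mRNA.

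The promoters are shown because ER stress genes are known for a small set of elements in them. RefSeq promoter windows on GRCh38.p14, running from 250 bases before to 50 bases after the annotated start, were searched on both strands, and all 10 genes had a window. The ER stress element, CCAAT and CCACG with 9 bases of any kind between them, was present in 5 of the 10 genes and in 0.0916% of the 27305 genes with a window. ERSE-II, ATTGG and CCACG with 1 base between them, was present in 2 of the 10 and in 0.0696% of all genes. The amino acid response element core TGATGCAA was found in HERPUD1 and in 1.08% of genes, and the XBP1-type element core TGACGTGG in none of the 10 and in 0.927% of genes. Printed 5′ to 3′ on the strand that reads the motif, with the fixed motif bases in capitals, the matches were:
HSPA5: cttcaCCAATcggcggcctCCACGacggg
HSP90B1 first match: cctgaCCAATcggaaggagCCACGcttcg
HSP90B1 second match: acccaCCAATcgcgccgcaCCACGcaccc
CALR: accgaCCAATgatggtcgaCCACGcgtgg
PDIA6: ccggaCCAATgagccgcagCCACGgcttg
XBP1: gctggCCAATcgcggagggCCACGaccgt
HERPUD1 ERSE-II: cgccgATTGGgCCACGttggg
HERPUD1 amino acid response element: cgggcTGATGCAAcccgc
SDF2L1 ERSE-II: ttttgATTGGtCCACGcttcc
They lie at chr9:125241386-125241414 (HSPA5, minus strand), chr12:103930211-103930239 (plus) and chr12:103930316-103930344 (minus; both HSP90B1), chr19:12938379-12938407 (CALR, minus), chr2:10812848-10812876 (PDIA6, minus), chr22:28800598-28800626 (XBP1, minus), chr16:56932020-56932040 (HERPUD1 ERSE-II, plus), chr16:56931961-56931978 (HERPUD1, minus) and chr22:21642109-21642129 (SDF2L1, minus). None of the 10 had both ER stress elements, the printed matches do not overlap each other, and the windows of PDIA4, DNAJB9 and SEL1L held none of the 4 motifs. These are matches of letters, and nothing was measured at them.

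Several features of the arrays bear on all values. The third day 5 array of puromycin at 0.09 uM was left out: its HBB signal was 30550, against 1.07 to 123.2 on the others, and its NKX2-2 signal was 156.1, against 1379 to 9661. On the other 67 arrays the Ewing markers NKX2-2, STEAP1, CD99, CCND1 and PRKCB were measured, with STEAP1 between 2352 and 10240. On day 5 the summed signal of these 5 markers was 20960 to 29470 with ARA-C at 0.17 uM, 26660 to 27040 with doxorubicin at 59.88 nM and 16460 to 18630 with doxorubicin at 119.76 nM, against 31070 to 45280 with vehicle. The 6 blood cell markers summed to 126.3 to 139.5, 137.8 to 209.1 and 282.2 to 306.9 in the same groups, against 16.82 to 93.13 with vehicle. The part of either list in the day 5 results was not tested. The ratio of the 3′ to the 5′ control probe set of beta-actin, which is higher where RNA is shortened, reached above the vehicle range on day 5, at log2 values of 2.877, 3.167 and 5.074 with ARA-C at 0.17 uM, 2.132 to 2.932 with doxorubicin at 59.88 nM 4.999 and 4.095 with doxorubicin at 119.76 nM and 2.104 and 2.451 with puromycin at 0.09 uM, against 0.529 to 2.082 with vehicle. It also ran above the vehicle earlier, at 1.386 to 1.993 with ARA-C at 0.17 uM, 1.26 to 2.134 with doxorubicin at 119.76 nM and 1.393 to 2.063 with puromycin at 0.09 uM, against 0.509 to 1.099 with vehicle at 24 hours. At 3 days it was 1.178 to 1.508 and 1.527 to 1.843 with ARA-C at 0.17 and 0.34 uM and 0.932 to 1.46 with puromycin at 0.09 uM, against 0.289 to 0.814 with vehicle. Partly above the 3 day vehicle were doxorubicin at 59.88 nM (0.69 to 1.606) and 119.76 nM (0.579 to 1.166) and puromycin at 0.18 uM (0.747 to 1.154). The single day 5 array of puromycin at 0.18 uM had 5.8% of probe sets under 10, where the median over all arrays was 19.9%. A pair of other fitted arrays stood further apart at low signals: 0.221% of probe sets were under 10 on the third 3 day array of ARA-C at 0.17 uM and 0.941% on the second 24 hour array of ARA-C at 0.34 uM. Their groups also had a median change over all probe sets of 0.28 and 0.20. Without the first of these PDIA4 was at -0.60 in its group, and without the second HERPUD1 was at 1.19 and DNAJB9 at 0.78, all still calls, while XBP1 was not (0.80, adjusted p = 0.122). Arrays also sat in different rows of the plate. All ARA-C 0.34 uM arrays and the single day 5 array of puromycin at 0.18 uM lay in rows G-H, vehicle arrays lay in both parts, and all other treated arrays lay in rows A-F. Between day 5 vehicle arrays of rows G-H and A-F 5 of the 10 genes passed the test, as did 22.2% of all probe sets. HERPUD1, XBP1, DNAJB9 and SEL1L were higher in rows G-H by 0.90, 1.04, 0.52 and 0.88 on the log2 scale, and SDF2L1 was lower, at -0.98. At 24 hours none of the 10 genes passed the test between the plate parts (0.446% of probe sets), and at 3 days SDF2L1 did (0.792%). In bulk RNA, fewer cells with a transcript and less of it per cell cannot be told apart.

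Most tests of the 10 genes against vehicle gave no call before day 5, lower calls outnumbered higher ones, and lower calls were most frequent on day 5 with ARA-C at 0.17 uM and doxorubicin. Called means an adjusted p under 0.05 in limma over all 22215 probe sets, and changes are log2 of treated over vehicle at the same time with the standard error (SE) of the fit. Over the 6 ARA-C groups 7 calls were higher and 12 lower, where 9.7% and 13.1% of all tests were. Over the 6 doxorubicin groups 2 were higher and 28 lower (9.6% and 16.6% of all tests), and over the 5 puromycin groups with replicates 0 were higher and 8 lower (3.14% and 6.86%). The puromycin counts depended on the fit. Against vehicle restricted to their own plate part 1 was higher and 4 lower (1.7% and 6.08% of tests). With the beta-actin ratio as a covariate 9 were higher and 6 lower (5.57% and 4.77%), among them HERPUD1, DNAJB9 and SEL1L higher at both doses at 24 hours (0.41 to 0.70), and neither day 5 call was kept.

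**Figure D1:**
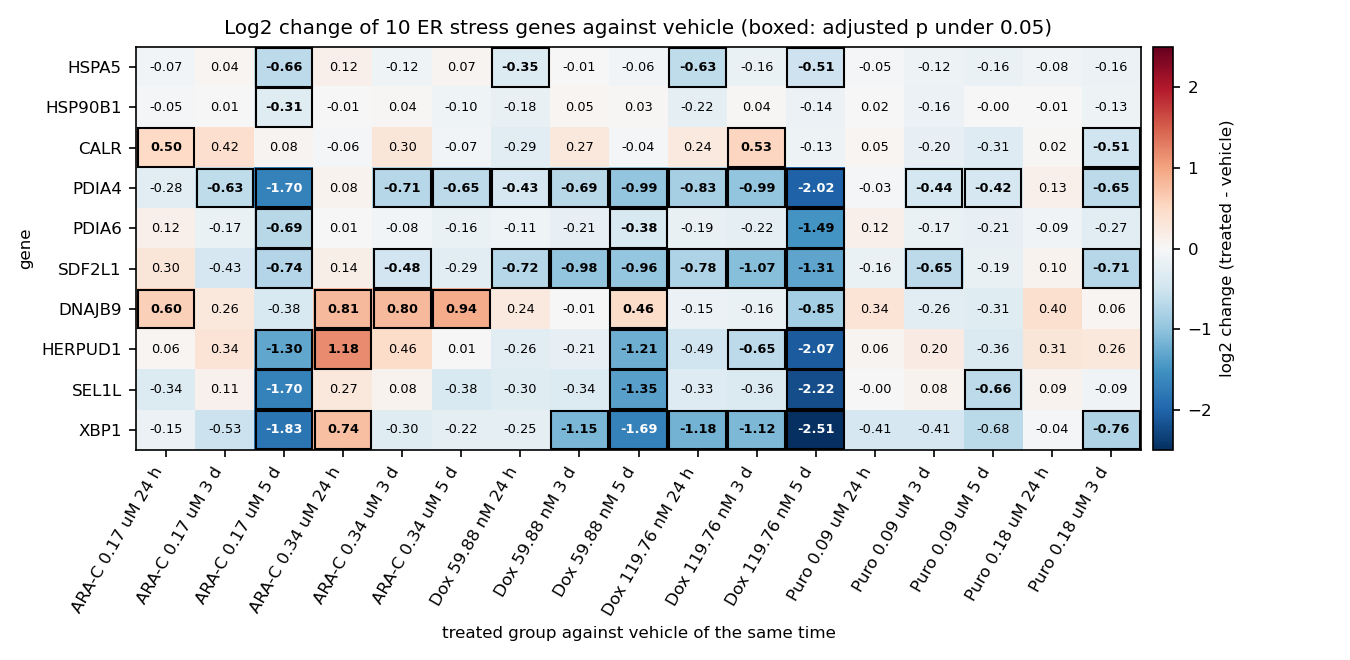
Log2 change of each of the 10 genes (vertical axis) in each treated group against vehicle of the same time (horizontal axis), with boxed cells for an adjusted p under 0.05. The changes of -1.69 and below were those of XBP1, SEL1L, HERPUD1 and PDIA4 in the day 5 columns of ARA-C 0.17 uM and doxorubicin, down to -2.51 for XBP1 at 119.76 nM, and HERPUD1 reached 1.18 with ARA-C 0.34 uM at 24 hours.

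By comparison, ARA-C at 0.17 uM gave 2 of the 10 genes higher and 0 lower at 24 hours (5.42% and 8.97% of all probe sets), with 3 genes at an unadjusted p under 0.05. At 3 days 0 were higher and 1, PDIA4, was lower (14.5% and 7.92%), with 4 genes at an unadjusted p under 0.05. On day 5 it gave 8 lower and 0 higher (38% and 10.3%; 9 genes at an unadjusted p under 0.05), and the median change of the 10 genes was -0.72 against -0.28 over all probe sets. ARA-C at 0.34 uM gave 3 higher and 0 lower at 24 hours (6.66% and 2.21%), 1 higher and 2 lower at 3 days (9.95% and 8.05%), and 1 higher and 1 lower on day 5 (11.4% and 13.6%). Against the vehicle arrays of its own rows G-H the day 5 counts at 0.34 uM were 1 higher and 4 lower (11.8% and 18.8% of probe sets), with PDIA4 at -0.61, SEL1L at -0.82 (adjusted p = 0.00122), XBP1 at -0.74 (adjusted p = 0.0201) and HERPUD1 at -0.45 (adjusted p = 0.0271). The ARA-C calls were thus all higher at 24 hours, and on day 5 lower calls appeared at both doses, their number at 0.34 uM depending on the vehicle arrays used.

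Doxorubicin at 59.88 nM gave 3 lower and 0 higher at 24 hours (2.75% and 2.52% of all probe sets; 3 genes at an unadjusted p under 0.05), 3 lower and 0 higher at 3 days (11.1% and 9.03%; 3 genes), and 6 lower and 1 higher on day 5 (29.2% and 12.1%). At 119.76 nM it gave 4 lower and 0 higher at 24 hours (7.72% and 6.59%; 6 genes), 4 lower and 1 higher at 3 days (11.1% and 11.5%), and 8 lower and 0 higher on day 5 (37.9% and 15.8%; 8 genes), where the median change of the 10 genes was -1.40 against -0.25 over all probe sets. Puromycin at 0.09 uM gave 0 calls at 24 hours (8.41% of probe sets lower and 2.09% higher; 0 genes at an unadjusted p under 0.05), 2 lower and 0 higher at 3 days (2.4% and 0.675%; 2 genes) and 2 lower and 0 higher on day 5 (12.1% and 5.31%; 3 genes). At 0.18 uM it gave 0 calls at 24 hours (4.29% lower and 3.31% higher; 1 gene at an unadjusted p under 0.05) and 4 lower and 0 higher at 3 days (7.13% and 4.32%; 5 genes). Set against the background, the share of the 10 genes called lower was above that of all probe sets in each doxorubicin group, with ARA-C at 0.17 uM on day 5 and 0.34 uM at 3 days, and with both doses of puromycin at 3 days, while ARA-C at 0.17 uM at 3 days and at 0.34 uM on day 5 were near it. Puromycin at 0.09 uM on day 5, with 2 of 10, was somewhat above it. Against vehicle of the same plate part, puromycin at 0.09 uM at 3 days gave 0 lower (2.93% of probe sets). Puromycin at 0.18 uM at 3 days then gave 2 (6.84%), and ARA-C at 0.34 uM on day 5 gave 4 (18.8%). The 10 genes were read at their brightest probe sets, while the background holds all probe sets. A median of 19.9% of these were under 10 per array, and the shares were not matched for signal.

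HSPA5 (chr9:125234853-125241343, minus strand, on GRCh38.p14, as for all positions here) encodes BiP, the Hsp70 chaperone of the ER. On day 5 its signal was 8358, 4942 and 8243 with ARA-C at 0.17 uM, against 10100, 10970 and 12710 (lowest, median and highest of 6) with vehicle, a change of -0.66 ± 0.11 (adjusted p = 3.76e-07). With doxorubicin at 119.76 nM it was 7227 and 8343, a change of -0.51 ± 0.12 (adjusted p = 0.000347). At 24 hours it was already lower with doxorubicin, at 8173, 9136 and 7912 at 59.88 nM and to 6906, 7734 and 6192 at 119.76 nM, against 9402, 10870 and 11470 with vehicle. In these 4 comparisons no treated array reached the lowest vehicle array. Their 24 hour changes were -0.35 ± 0.11 (adjusted p = 0.0386) and -0.63 ± 0.11 (adjusted p = 1.61e-05). At 3 days neither dose of doxorubicin passed the test for HSPA5, and none of the puromycin groups that could be tested did. With the beta-actin ratio as a covariate the day 5 changes were -0.35 with ARA-C at 0.17 uM (adjusted p = 0.0348) and -0.09 with doxorubicin at 119.76 nM (adjusted p = 0.744). The smaller 24 hour call was lost in 6 of the 9 fits that left out 1 of its arrays, those without treated replicate 1 or 3 or vehicle replicate 3, 4, 5 or 6 (-0.31 to -0.35).

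HSP90B1 (chr12:103930410-103947926), the ER member of the Hsp90 family, was called at its brightest probe set in 1 of the 17 comparisons with vehicle, the fewest of the 10 genes. Over the 67 arrays its signal ran between 5034 and 9344. The call was with ARA-C at 0.17 uM on day 5, at 7899, 5034 and 8269, against 7922, 8461 and 9344 (lowest, median and highest of 6) with vehicle, a change of -0.31 ± 0.09 (adjusted p = 0.00523). The groups overlapped, the change was 0.11 after scaling to a common median, and without the second treated array it was -0.08 (adjusted p = 0.529). That array also had the highest beta-actin ratio of the 67. Other HSP90B1 probe sets, with mean signals of 5254 and 1937, were called lower in 4 and 7 of the 17 comparisons. The one at 736.5 was higher in 5 and lower in 1. Their changes correlated with those of the brightest at 0.334, 0.072 and -0.063.

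CALR (chr19:12938609-12944489) encodes calreticulin, the lectin chaperone that binds newly made glycoproteins and calcium. With ARA-C at 0.17 uM its 24 hour signal was 4473, 3868 and 4191, against 2584, 2919 and 3337 (lowest, median and highest of 6) with vehicle, a change of 0.50 ± 0.16 (adjusted p = 0.0275), and the groups did not overlap. At 3 days it was 3726, 3487 and 3264 with doxorubicin at 119.76 nM and 2102, 1891 and 1240 with puromycin at 0.18 uM, against 2729, 3625, 2127, 2058 and 1909 with vehicle, changes of 0.53 ± 0.17 (adjusted p = 0.0161) and -0.51 ± 0.17 (adjusted p = 0.0383). Both of these overlapped the vehicle. Against the vehicle arrays of its own rows A-F the doxorubicin change was 0.15 (adjusted p = 0.74) and the puromycin change -0.89 (adjusted p = 0.000711), as the 3 day vehicle arrays of rows G-H were lower than those of rows A-F by a difference of -0.63 that did not pass the test (adjusted p = 0.115). None of the 3 CALR calls was also a call in any of its other probe sets, and without the third puromycin array that change was -0.28 (adjusted p = 0.567). The puromycin call was also lost without vehicle replicate 1 or 2 (-0.46 and -0.36), the doxorubicin call without treated replicate 1 or vehicle replicate 6 (0.48 and 0.44), and the ARA-C call without any 1 treated array or vehicle replicate 1 (0.45 to 0.56). Other CALR probe sets, with mean signals of 522.1 and 2355, were called lower in 9 and 5 of the 17 comparisons and higher in 0. The one at 978.4 was higher in 2 and lower in 2, and the one at 198.2 was lower in 1.

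**Figure D2:**
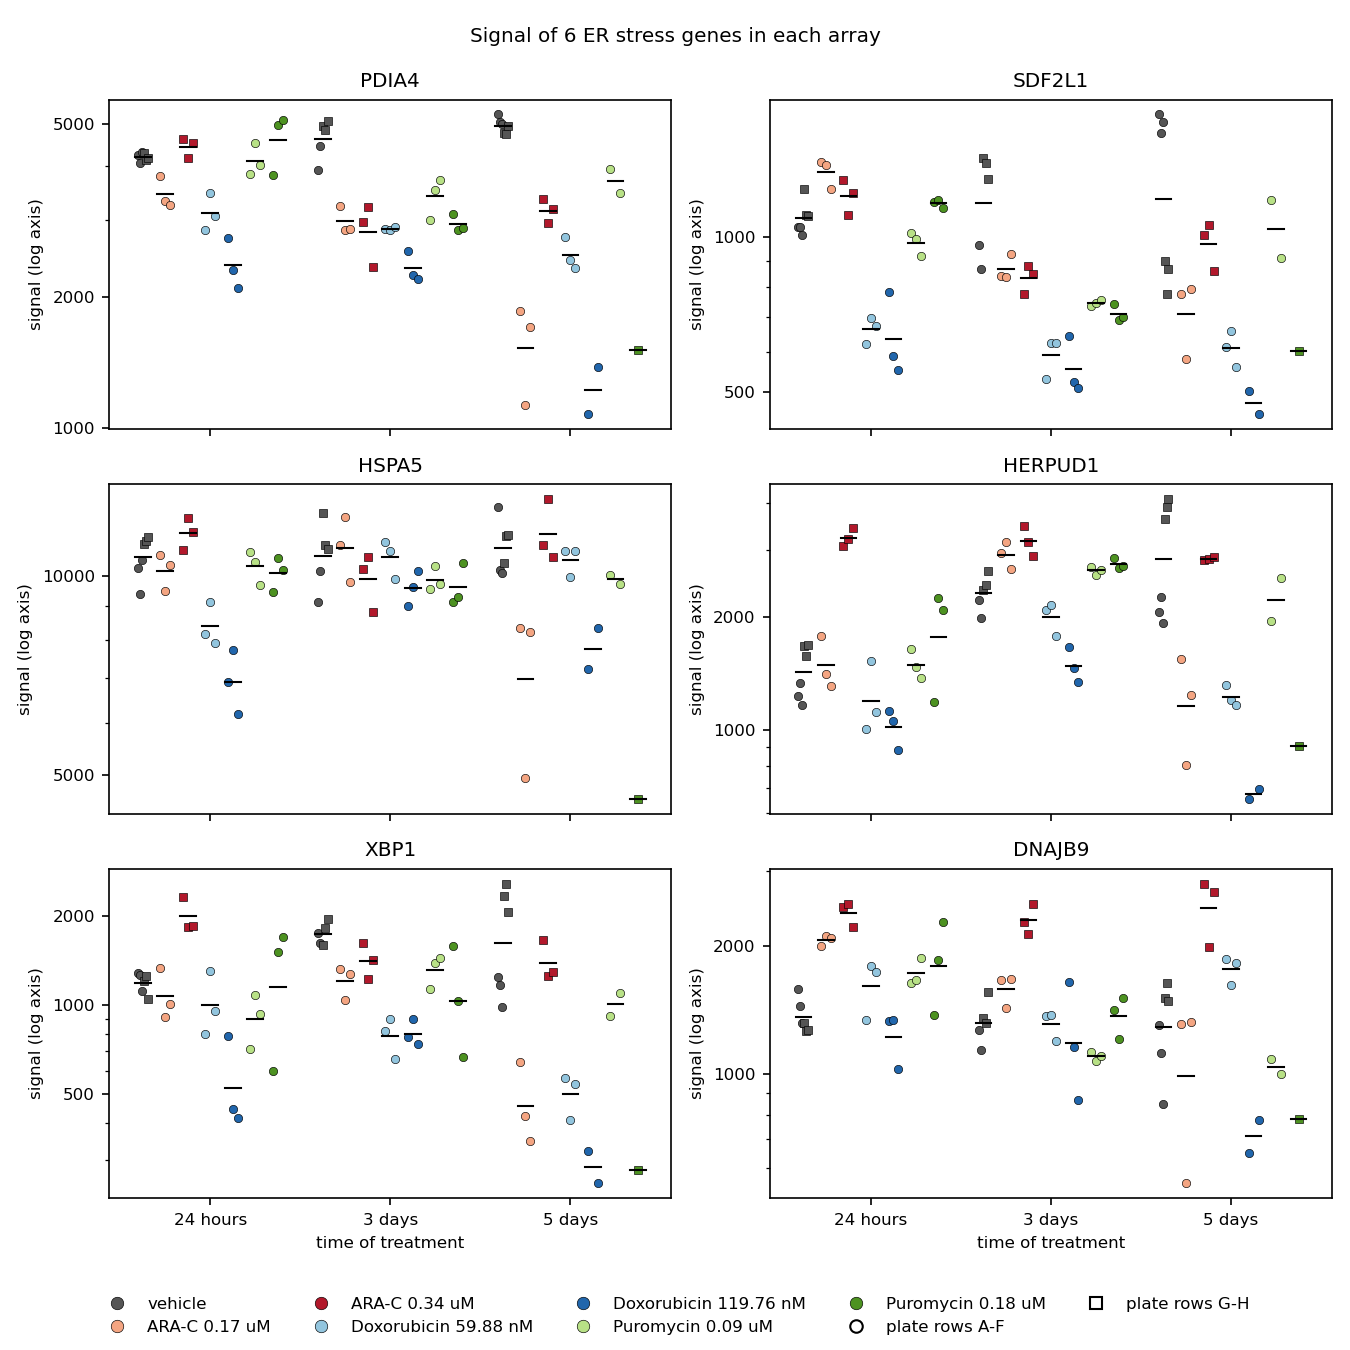
Signal (arbitrary units after the authors' scaling, log axis) of 6 genes on every array, by time and treatment, with the vehicle and then low and high doses from left to right; circles are plate rows A-F, squares rows G-H and bars geometric means. On day 5 the PDIA4 signal ran between 1077 and 1860 with ARA-C 0.17 uM and doxorubicin 119.76 nM, against 4733 to 5257 with vehicle, and the vehicle arrays of HERPUD1, XBP1 and SDF2L1 split by plate part.

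PDIA4 (chr7:149003051-149028505), a disulphide isomerase also known as ERp72, was called lower in 13 of the 17 comparisons with vehicle, the most of the 10 genes. On day 5 its signal was 1860, 1127 and 1704 with ARA-C at 0.17 uM, 3354, 2956 and 3181 with ARA-C at 0.34 uM, 2752, 2432 and 2328 with doxorubicin at 59.88 nM, 1077 and 1382 with doxorubicin at 119.76 nM and 3935 and 3475 with puromycin at 0.09 uM, against 4733, 4969 and 5257 (lowest, median and highest of 6) with vehicle. Every treated array on that day lay below every vehicle array. The largest change was -2.02 ± 0.13 with doxorubicin at 119.76 nM (0.246 of the vehicle level, adjusted p = 6.99e-20), followed by -1.70 ± 0.11 with ARA-C at 0.17 uM (adjusted p = 1.09e-18). Its day 5 vehicle arrays of rows G-H, at 4733 to 4953, lay below those of rows A-F, at 4986 to 5257, by a difference of -0.08 that did not pass the test (adjusted p = 0.764).

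The fall in PDIA4 began early with doxorubicin. At 24 hours it was 2852, 3470 and 3066 at 59.88 nM and 2739, 2313 and 2094 at 119.76 nM, against 4070, 4211 and 4307 with vehicle, changes of -0.43 ± 0.11 (adjusted p = 0.0106) and -0.83 ± 0.11 (adjusted p = 1.19e-07). At 3 days it was lower with every compound and dose, with changes of -0.63 and -0.71 for ARA-C at 0.17 and 0.34 uM, -0.69 and -0.99 for doxorubicin at 59.88 and 119.76 nM, and -0.44 and -0.65 for puromycin at 0.09 and 0.18 uM (adjusted p at most 0.0156). Within rows A-F the puromycin 0.09 uM value was -0.29 (adjusted p = 0.344). With the beta-actin covariate the day 5 changes were -1.30 for ARA-C at 0.17 uM and -1.48 for doxorubicin at 119.76 nM, both still called. The second PDIA4 probe set, with a mean signal of 824.5 against 3433, was called the same way in 5 of the 13 comparisons and had the opposite sign in 4, among them both puromycin doses at 3 days (0.18 and 0.25) and doxorubicin at 59.88 nM at 24 hours (0.015). One of the 4 was itself called, puromycin at 0.09 uM on day 5, at 0.98 (adjusted p = 0.000829) against -0.42 ± 0.13 (adjusted p = 0.0144) for the brighter probe set, so the direction of that change depends on the probe set. It also turned, to 0.059, after scaling to a common median, and was no call without the first (-0.51) or the second (-0.33) treated array. The 24 hour call at 59.88 nM was lost without the first (-0.36) or the third (-0.42) treated array, and that of puromycin at 0.09 uM at 3 days without the first treated array (-0.35).

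PDIA6 (chr2:10783391-10837712), another disulphide isomerase, was called on day 5 alone at its brightest probe set. Its signal was 8961, 3612 and 6542 with ARA-C at 0.17 uM, 7143, 7058 and 8005 with doxorubicin at 59.88 nM and 3065 and 3828 with doxorubicin at 119.76 nM, against 8484, 9597 and 11170 (lowest, median and highest of 6) with vehicle. The doxorubicin arrays did not reach the vehicle, while the first ARA-C array did. The changes were -0.69 ± 0.13 (adjusted p = 5.21e-06), -0.38 ± 0.13 (adjusted p = 0.0114) and -1.49 ± 0.15 (adjusted p = 5.07e-13). With the beta-actin covariate only the last was called, at -1.10, and the 59.88 nM call was lost without its second array (-0.35). Other PDIA6 probe sets, with mean signals of 6690 and 4899, were called lower in 7 and 10 of the 17 comparisons, so also before day 5. The one at 8031 was lower in 3, and the one at 4324 was higher in 2 and lower in 1.

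Among the co-factors of BiP, SDF2L1 (chr22:21642302-21644299), a subunit of an ER chaperone complex with BiP, fell with doxorubicin at every time. At 24 hours its signal was 620.3, 697.1 and 671.7 at 59.88 nM and 783.3, 587.0 and 553.3 at 119.76 nM, against 1012, 1073 and 1240 (lowest, median and highest of 6) with vehicle. At 3 days it was 530.2, 624.0 and 623.7 at 59.88 nM and 642.5, 523.5 and 509.3 at 119.76 nM, against 967.6, 869.1, 1422, 1392 and 1296 with vehicle. On day 5 it was 613.5, 656.9 and 558.9 at 59.88 nM and 502.7 and 453.9 at 119.76 nM, against 775.7, 1247 and 1731 with vehicle. No doxorubicin array reached the vehicle of its time. The changes at 59.88 nM were -0.72, -0.98 and -0.96, and at 119.76 nM -0.78, -1.07 and -1.31, each with an SE of 0.17 to 0.19 (adjusted p at most 0.00436). All doxorubicin arrays lay in rows A-F. The mean vehicle signal there was 918.4 at 3 days and 1666 on day 5, against 1370 and 847.4 in rows G-H. Against vehicle of rows A-F alone, the fall is thus smaller at 3 days and larger on day 5 than these changes.

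SDF2L1 was also lower with ARA-C on day 5 at 0.17 uM, at 776.2, 579.7 and 795.2, a change of -0.74 ± 0.17 (adjusted p = 0.000148) that turned to 0.18 after quantile normalization. These arrays overlapped the vehicle arrays of rows G-H, at 775.7 to 899.7. Against the vehicle arrays of its own rows A-F, at 1594 to 1731, the change was -1.23. At 3 days ARA-C at 0.34 uM gave 777.2, 880.6 and 848.2, a change of -0.48 ± 0.17 (adjusted p = 0.0403) that was lost without any 1 treated array or vehicle replicate 4, 5 or 6 (-0.41 to -0.52) and was -0.71 against vehicle of its own rows G-H. Its arrays overlapped the vehicle of rows A-F. At that time puromycin gave 734.1, 744.4 and 755.7 at 0.09 uM and 742.9, 690.7 and 700.0 at 0.18 uM, changes of -0.65 ± 0.17 (adjusted p = 0.0201) and -0.71 ± 0.17 (adjusted p = 0.00229). These arrays lay in rows A-F, where the vehicle gave 967.6 and 869.1, and against those alone the changes were -0.30 at 0.09 uM (adjusted p = 0.28) and -0.37 at 0.18 uM (adjusted p = 0.0713). On day 5, by contrast, the 0.09 uM change was -0.19 against all vehicle arrays and -0.68 against those of rows A-F (adjusted p = 0.000468). The 0.09 uM call was lost without any 1 treated array or any 1 of vehicle replicates 4 to 6, those of rows G-H (-0.58 to -0.66).

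DNAJB9 (chr7:108569874-108574850), a J-domain co-chaperone of BiP also known as ERdj4, was the member that ARA-C raised most often. With ARA-C at 0.34 uM it was 2465, 2510 and 2214 at 24 hours, 2274, 2131 and 2513 at 3 days and 2802, 1988 and 2678 on day 5. Vehicle arrays ran from 1262 to 1581 at 24 hours, 1137 to 1558 at 3 days and 849.5 to 1633 on day 5, so the groups did not overlap at any time. The changes were 0.81, 0.80 and 0.94, each ± 0.18 (adjusted p = 0.00142, 0.000912 and 3.71e-05), and against the vehicle arrays of its own rows G-H the day 5 change was 0.68. ARA-C at 0.17 uM raised it at 24 hours, to 2001, 2112 and 2091, a change of 0.60 ± 0.18 (adjusted p = 0.015), and on day 5 gave 1311, 552.5 and 1325 with no call. The 24 hour call was lost without the second or the third treated array (0.59 and 0.60).

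Doxorubicin moved DNAJB9 in opposite directions on day 5. At 59.88 nM it was 1857, 1621 and 1821, a change of 0.46 ± 0.18 (adjusted p = 0.0349), which was lost without treated replicate 1 or 3 or vehicle replicate 2 or 3 (0.34 to 0.43), and at 119.76 nM it was 650.4 and 779.5, a change of -0.85 ± 0.21 (adjusted p = 0.000369). The second value turned to 0.17 after quantile normalization and to 0.15 with the beta-actin covariate (adjusted p = 0.696).

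HERPUD1 (chr16:56932142-56944864), an ER membrane protein that helps to assemble the degradation machinery, had the largest rise among the 10 genes. With ARA-C at 0.34 uM at 24 hours it was 3080, 3212 and 3444, against 1162, 1454 and 1677 (lowest, median and highest of 6) with vehicle, a change of 1.18 ± 0.18 (2.27-fold, adjusted p = 4.57e-06). Against the vehicle arrays of its own rows G-H, at 1575 to 1677, the change was 0.98 (adjusted p = 1.66e-05), and with the beta-actin covariate 1.13. Its signal at 0.17 uM and 24 hours was 1780, 1409 and 1308, with no call. At 3 days doxorubicin at 119.76 nM gave 1660, 1456 and 1340, against 2210, 1988, 2357, 2434 and 2638 with vehicle, with no overlap and a change of -0.65 ± 0.19 (adjusted p = 0.00733), which was -0.57 without the third treated array (adjusted p = 0.0558).

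On day 5 HERPUD1 was lower, at 1545, 807.2 and 1234 with ARA-C at 0.17 uM, 1315, 1202 and 1162 with doxorubicin at 59.88 nM and 656.1 and 694.5 with doxorubicin at 119.76 nM. Vehicle arrays were at 1924 to 2256 in rows A-F, the rows of these treated arrays, and at 3641 to 4109 in rows G-H. All 8 treated arrays lay below every vehicle array. The changes were -1.30 ± 0.18, -1.21 ± 0.18 and -2.07 ± 0.21 (adjusted p = 1.52e-08, 1.3e-07 and 1.22e-12), and -0.85, -0.76 and -1.62 within rows A-F. With the beta-actin covariate they were -0.42 (adjusted p = 0.0578), -0.78 and -0.89. ARA-C at 0.34 uM gave 2834, 2849 and 2879 in rows G-H, a change of 0.01 against all vehicle arrays and of -0.45 within rows G-H (adjusted p = 0.0271), so its direction depends on the vehicle arrays used.

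SEL1L (chr14:81471547-81533853), the adaptor of the HRD1 ubiquitin ligase, was called only on day 5 at its brightest probe set. It was 703.0, 262.3 and 722.5 with ARA-C at 0.17 uM, 738.4, 531.1 and 700.9 with doxorubicin at 59.88 nM, 269.0 and 469.5 with doxorubicin at 119.76 nM and 1030 and 1077 with puromycin at 0.09 uM. With vehicle it was 1087 to 1374 in rows A-F and 2087 to 2392 in rows G-H, above all 10 of those treated arrays. The changes were -1.70 ± 0.20, -1.35 ± 0.20, -2.22 ± 0.23 and, with puromycin, -0.66 ± 0.23 (adjusted p = 2.98e-10, 1.63e-07, 5.5e-12 and 0.0435). Within rows A-F they were -1.26, -0.91, -1.78 and -0.22, the last no longer a call (adjusted p = 0.799). The puromycin call was also lost without either treated array or without vehicle replicate 4, 5 or 6 (-0.55 to -0.69). With the beta-actin covariate the first 3 were -0.62, -0.82 and -0.77, all called.

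XBP1 (chr22:28794560-28800569), the transcription factor downstream of IRE1, had the largest fall. On day 5 it was 643.4, 423.0 and 347.7 with ARA-C at 0.17 uM, 567.1, 409.6 and 540.3 with doxorubicin at 59.88 nM and 322.3 and 250.2 with doxorubicin at 119.76 nM. Vehicle arrays were at 986.7 to 1241 in rows A-F and 2068 to 2572 in rows G-H. None of the 8 treated arrays reached a vehicle array. The changes were -1.83 ± 0.25, -1.69 ± 0.25 and -2.51 ± 0.29 (adjusted p = 7.7e-09, 8.69e-08 and 5.16e-11), the last to 0.176 of the vehicle level. Within rows A-F they were -1.30, -1.17 and -1.99, and with the beta-actin covariate -0.63, -1.10 and -0.90, all called.

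Doxorubicin lowered XBP1 before day 5 as well. At 24 hours 119.76 nM gave 783.8, 444.0 and 416.7, against 1048, 1227 and 1281 (lowest, median and highest of 6) with vehicle, a change of -1.18 ± 0.25 (adjusted p = 0.000433). At 3 days 59.88 nM gave 815.3, 900.3 and 659.0 and 119.76 nM gave 780.5, 895.0 and 736.4, against 1756, 1616, 1599, 1818 and 1956 with vehicle, changes of -1.15 ± 0.26 (adjusted p = 0.000454) and -1.12 ± 0.26 (adjusted p = 0.000569). All of these arrays lay below the vehicle of their time. ARA-C at 0.34 uM at 24 hours went the other way, at 2319, 1842 and 1852, a change of 0.74 ± 0.25 (adjusted p = 0.0463), but that call was lost in all 9 fits that left out 1 array (0.63 to 0.80). Puromycin at 0.18 uM at 3 days gave 1587, 1033 and 666.8, a change of -0.76 ± 0.26 (adjusted p = 0.0406), and -0.45 without the third array (adjusted p = 0.531), and the call was also lost without treated replicate 2 or vehicle replicate 1, 5 or 6 (-0.72 to -0.76) and against vehicle of its own rows A-F (-0.71, adjusted p = 0.119).

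The single day 5 array of puromycin at 0.18 uM allowed no test. It had 4607 for HSPA5, 1508 for PDIA4, 3367 for PDIA6, 902.8 for HERPUD1, 278.1 for XBP1, 780.8 for DNAJB9, 474.3 for SEL1L, 600.8 for SDF2L1, 6335 for HSP90B1 and 2369 for CALR. Each of these lay below every vehicle array of that day, but the share of all probe sets that did so was not taken. The values thus cannot tell a shift of these genes from one of the whole array. The beta-actin ratio of this array was 4.126, and 5.8% of its probe sets were under 10.

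**Figure D3:**
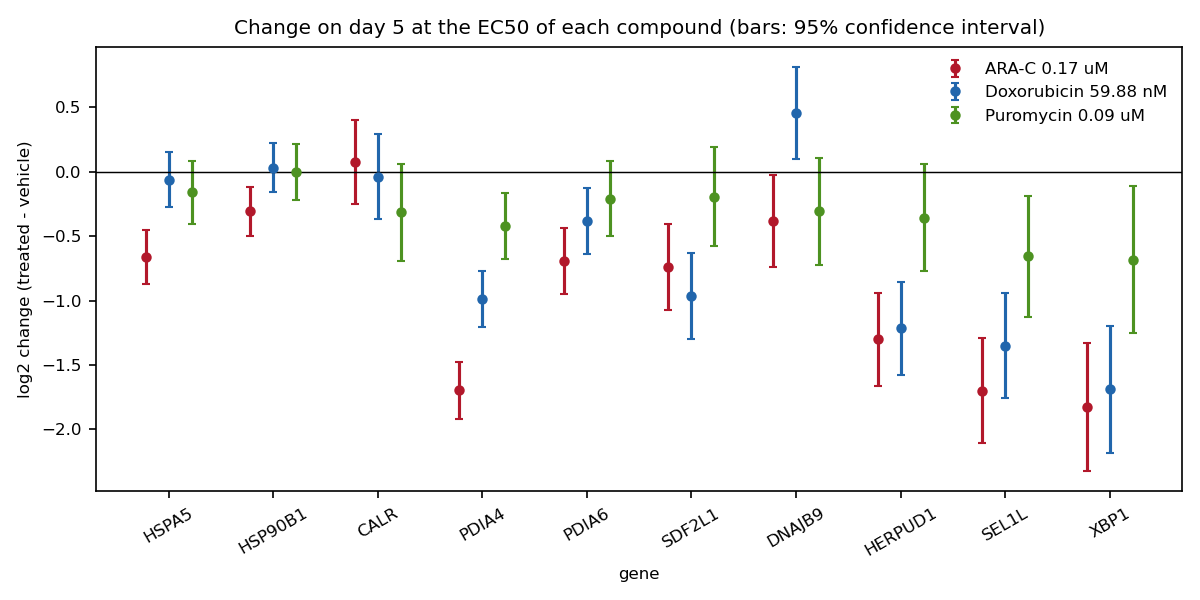
Day 5 log2 change (vertical axis) of the 10 genes (horizontal axis) at the EC50 of each compound against vehicle, with 95% confidence intervals of the limma fit. ARA-C at 0.17 uM and doxorubicin at 59.88 nM lie close together for XBP1, at -1.83 and -1.69, and apart for PDIA4, at -1.70 and -0.99, and puromycin at 0.09 uM lies nearest to 0 for most genes.

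The compounds were compared with each other at their EC50 in 9 pairs, which addresses whether they moved these genes to a different extent. On day 5 puromycin was higher than ARA-C for 8 of the 10 genes (27.3% of all probe sets; HSP90B1 and SDF2L1 turned sign after quantile normalization), by 1.27 ± 0.14 for PDIA4 (adjusted p = 2.74e-10), 1.14 ± 0.32 for XBP1 (adjusted p = 0.00315), 1.04 ± 0.26 for SEL1L (adjusted p = 0.00103) and 0.94 ± 0.23 for HERPUD1 (adjusted p = 0.000863). With the beta-actin covariate XBP1 was at 0.44 (adjusted p = 0.182), SEL1L at 0.41 (adjusted p = 0.0718) and HERPUD1 at 0.43 (adjusted p = 0.058), while PDIA4, at 1.04, and SDF2L1, at 0.65, were the calls left. Puromycin was higher than doxorubicin for 5 genes and lower for DNAJB9 (15.4% and 7.6%), by 1.01 ± 0.32 for XBP1 (adjusted p = 0.0154), 0.86 ± 0.23 for HERPUD1 (adjusted p = 0.00423), 0.77 ± 0.21 for SDF2L1 (adjusted p = 0.00544) and -0.76 ± 0.23 for DNAJB9 (adjusted p = 0.0108). The 9 puromycin against ARA-C calls over all times became 5 without the second day 5 ARA-C array, and the 6 against doxorubicin became 2 and 3 without the second and the first puromycin array.

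Doxorubicin was higher than ARA-C on day 5 for 4 genes (18.5% of probe sets), namely HSPA5 by 0.60 ± 0.12 (adjusted p = 0.000194), HSP90B1 by 0.34 ± 0.11 (adjusted p = 0.0186), PDIA4 by 0.71 ± 0.13 (adjusted p = 2.98e-05) and DNAJB9 by 0.84 ± 0.21 (adjusted p = 0.0018). Without the second ARA-C array HSP90B1 was at 0.11 (adjusted p = 0.545) and DNAJB9 at 0.42 (adjusted p = 0.161), and with the beta-actin covariate DNAJB9 was at 0.46 (adjusted p = 0.0562). XBP1, at 0.14 ± 0.29 (adjusted p = 0.808), and HERPUD1 did not pass the test, and the 95% interval of the XBP1 difference ran from -0.44 to 0.71. At 24 hours doxorubicin was lower than ARA-C for SDF2L1, at -1.02 ± 0.19 (adjusted p = 0.000639), and CALR, at -0.79 ± 0.19 (adjusted p = 0.00645), where 2.43% of probe sets were lower. At 3 days the only call among the pairs was CALR, lower with puromycin than with ARA-C, at -0.62 ± 0.19 (adjusted p = 0.0151; 13.9% of probe sets lower). The other pairs at 24 hours and 3 days had 0 calls, with 2 or 3 genes at an unadjusted p under 0.05 in each, and 9.35%, 6.63%, 3.16% and 16.1% of probe sets called for doxorubicin against ARA-C at 3 days, puromycin against ARA-C at 24 hours, and puromycin against doxorubicin at 24 hours and 3 days.

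The doses of doxorubicin and of ARA-C differed on day 5, in opposite directions. Doxorubicin at 119.76 nM was lower than at 59.88 nM for 7 genes (23% of all probe sets), with differences of -1.31 for DNAJB9, -1.11 for PDIA6, -1.03 for PDIA4, -0.87 for SEL1L, -0.86 for HERPUD1, -0.82 for XBP1 and -0.45 for HSPA5. With the beta-actin covariate XBP1 and SEL1L turned to 0.20 and 0.048, and HERPUD1 and HSPA5 were at -0.11 and -0.18, no longer calls. Without the first 119.76 nM array SEL1L was at -0.47 (adjusted p = 0.338) and HSPA5 at -0.34 (adjusted p = 0.166), and the XBP1 call was lost without either array of 119.76 nM or without the first or the third of 59.88 nM (between -0.64 and -1.001). ARA-C at 0.34 uM was higher than at 0.17 uM for 7 genes (34.1%), by 1.61 for XBP1, 1.32 for DNAJB9, 1.32 for SEL1L, 1.31 for HERPUD1, 1.05 for PDIA4, 0.73 for HSPA5 and 0.53 for PDIA6. With the beta-actin covariate XBP1, SEL1L and PDIA6 were at 0.55, 0.37 and 0.27, no longer calls, and PDIA6 was at 0.17 without the second 0.17 uM array (adjusted p = 0.322). At 24 hours 3 genes were higher at 0.34 uM, led by HERPUD1 at 1.13 ± 0.21 (adjusted p = 0.000256), and CALR was lower, at -0.56 (10.9% and 3.39%). The 2 ARA-C doses lay in different plate parts, where the day 5 vehicle arrays themselves differed. With each dose set against the vehicle arrays of its own plate part, 5 genes were higher at 0.34 uM on day 5 (23.4% of probe sets changed), namely SDF2L1 by 1.43, PDIA4 by 1.13, DNAJB9 by 0.80, PDIA6 by 0.72 and HSPA5 by 0.71. XBP1 was then at 0.57 (adjusted p = 0.29), SEL1L at 0.44 (adjusted p = 0.316) and HERPUD1 at 0.40 (adjusted p = 0.22), none of them a call. At 24 hours HERPUD1, at 0.72 (adjusted p = 0.0288), was the 1 call left (11.7%; 5 genes at an unadjusted p under 0.05), and at 3 days there were 0 (0.144%; 2 genes at an unadjusted p under 0.05). The remaining dose comparisons, made directly, had 0 calls: ARA-C at 3 days (0.752% of probe sets; 1 gene at an unadjusted p under 0.05), doxorubicin at 24 hours and 3 days (0.378% and 1.3%; 4 and 2 genes) and puromycin at 24 hours and 3 days (0% and 0.356%; 0 and 0 genes).

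The effect at the EC50 was set between day 5 and 24 hours as an interaction, to ask whether it changed with time. For ARA-C the effect was more negative on day 5 for 8 genes, where 30.8% of probe sets changed, with differences between -0.59 for HSPA5 and -1.67 for XBP1. For doxorubicin it was more negative for XBP1, SEL1L, HERPUD1 and PDIA4 (25.5%), with differences between -0.56 and -1.44. For puromycin 0 changed (4.24%), with 3 at an unadjusted p under 0.05. With vehicle arrays of rows A-F only, the doxorubicin values for XBP1 and SEL1L were -0.89 and -0.56 (adjusted p = 0.0874 and 0.21), and DNAJB9 with ARA-C was -0.64 (adjusted p = 0.094), while SDF2L1 with doxorubicin went to -0.81 (adjusted p = 0.000296) where it had been -0.25, and HSP90B1 with ARA-C to -0.44 (adjusted p = 0.0207). In vehicle cells alone, HERPUD1 was higher at 3 days than at 24 hours by 0.70 ± 0.15 (adjusted p = 0.00379; 3.16% of probe sets changed), and CALR and SEL1L were higher on day 5 than at 3 days by 0.53 and 0.54 (adjusted p = 0.00375 and 0.0181; 21.1%). The SEL1L call was lost without vehicle replicate 4, 5 or 6 of day 5 (0.44 to 0.48), which lie in rows G-H. Its mean vehicle signal was 2252 on day 5 and 1114 at 3 days in rows G-H, and 1229 and 1181 in rows A-F. That of CALR was 3154 on day 5 and 2031 at 3 days in rows G-H, and 3860 and 3177 in rows A-F.

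**Figure D4:**
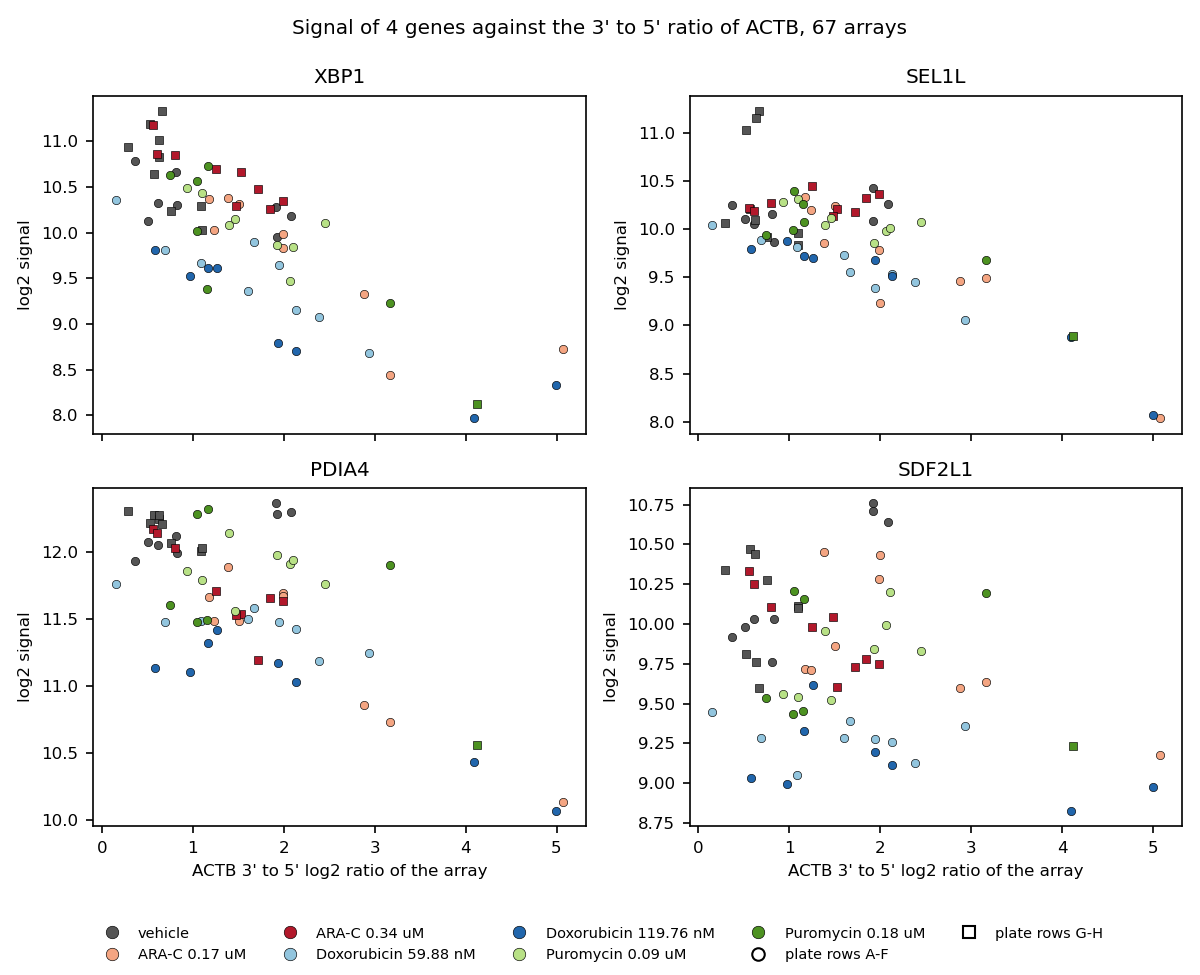
Log2 signal (vertical axis) of XBP1, SEL1L, PDIA4 and SDF2L1 on each of 67 arrays against the beta-actin 3′ to 5′ log2 ratio (horizontal axis), coloured by compound. XBP1 and SEL1L were lower where the ratio was higher, within-group slopes of -0.49 and -0.45, PDIA4 had a slope of -0.17 and SDF2L1 of 0.07.

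The genes differed in how their signal ran with the beta-actin ratio. The within-group slope of log2 signal per unit of the beta-actin log2 ratio was -0.49 for XBP1, -0.45 for SEL1L, -0.36 for HERPUD1 and -0.31 for DNAJB9, between the 6.7 and the 18.2 percentile of all probe sets. It was -0.17 for PDIA4, -0.13 for HSPA5, -0.12 for PDIA6, 0.00 for HSP90B1, 0.07 for SDF2L1 and 0.12 for CALR. With the covariate 5 genes were called lower with ARA-C at 0.17 uM on day 5 (19.1% of all probe sets), 5 with doxorubicin at 59.88 nM (21.5%) and 6 with doxorubicin at 119.76 nM (18.1%). PDIA4, SEL1L, XBP1 and SDF2L1 were among them each time.

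Other probe sets gave a check on 6 of the genes, as HSPA5, HERPUD1, XBP1 and SDF2L1 had 1 each. The second DNAJB9 probe set had the same sign in 6 of 6 called comparisons, the other SEL1L probe sets in 4 of 4 and those of PDIA6 in 3 of 3. The sizes differed: 1 of the SEL1L probe sets, with a mean signal of 47.25, was called in 1 of 4 and was at -0.07 with doxorubicin at 119.76 nM on day 5, where the brightest was at -2.22, and 1 of PDIA6, with a mean signal of 4324, was called in 1 of 3 and was at -0.08, where the brightest was at -1.49. Those of PDIA4, CALR and HSP90B1 did not always, as given above and in the closing section. These counts cover only comparisons called at the brightest probe set, and several other probe sets were also called elsewhere.

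**Figure D5:**
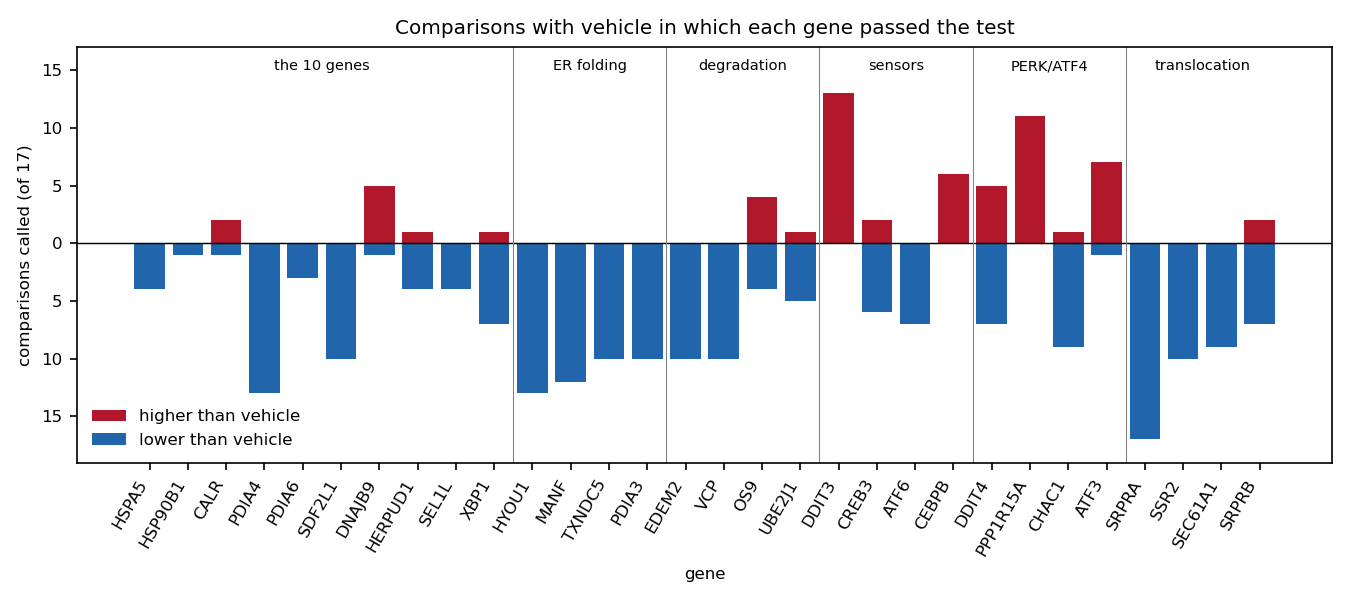
Number of the 17 comparisons with vehicle (vertical axis) in which each gene (horizontal axis) was called higher (upward bars) or lower (downward bars), for the 10 genes and 20 further genes of ER folding, degradation, stress signalling and translocation. PDIA4 was lower in 13, HYOU1 in 13 and SRPRA in 17, while DDIT3 was higher in 13.

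The rest of the pathway was read from lists of genes by role. Among other folding factors 17 of 21 measured were lower and 1 higher with ARA-C at 0.17 uM on day 5 (median -0.78, against -0.28 over all probe sets, of which 38% were lower), and 17 of 21 lower and 0 higher with doxorubicin at 119.76 nM (median -1.09 against -0.25, with 37.9% of all probe sets lower). With ARA-C at 0.34 uM on day 5 they were 4 higher and 6 lower (median -0.04; 11.4% and 13.6% of all probe sets), and with puromycin at 0.09 uM 0 higher and 5 lower (5.31% and 12.1%). HYOU1, an ER chaperone that exchanges the nucleotide of BiP, was lower in 13 of 17 comparisons, at -1.31 ± 0.09 with ARA-C at 0.17 uM on day 5. MANF, a secreted ER stress protein, was lower in 12. PDIA3, the isomerase that works with calreticulin, was lower in 10, at -1.29 with doxorubicin at 119.76 nM on day 5.

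Degradation genes were lower on day 5 in 10 of 11 measured with ARA-C at 0.17 uM and in 8 of 11 with doxorubicin at 119.76 nM, with none higher in either (38% and 37.9% of all probe sets lower). They were 5 of 11 lower with doxorubicin at 59.88 nM (29.2%), 2 higher and 2 lower with ARA-C at 0.34 uM (11.4% and 13.6%) and 2 of 11 lower with puromycin at 0.09 uM (12.1%). With doxorubicin at 119.76 nM EDEM2, a lectin of ER degradation, changed by -4.01 ± 0.28 and VCP, the ATPase that extracts substrates, by -2.44. Of 18 genes of ER translocation and export, 14 were lower on day 5 with ARA-C at 0.17 uM (38% of all probe sets). With doxorubicin at 119.76 nM 16 of 18 were lower (37.9%). With ARA-C at 0.34 uM 3 were higher and 4 lower (11.4% and 13.6%), and with puromycin at 0.09 uM 1 higher and 5 lower (5.31% and 12.1%). SRPRA, a subunit of the signal recognition particle receptor, was lower in all 17 comparisons (-0.38 to -1.55). Most genes of these 3 lists were thus lower on day 5 with ARA-C at 0.17 uM and doxorubicin at 119.76 nM, where most of the 10 genes were lower too, and most were not called with puromycin at 0.09 uM.

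DDIT3, the CHOP factor, was listed among 12 sensors and transcription factors of the response. It was higher in 13 of 17 comparisons and lower in 0. Its rise was 1.79 ± 0.16 with ARA-C at 0.34 uM at 24 hours. At 3 days it was 1.77 with doxorubicin at 119.76 nM and 1.69 with puromycin at 0.18 uM. In that list CREB3 was lower in 6 and higher in 2, CEBPB higher in 6 and lower in 0, ATF6 lower in 7 and higher in 0, and ATF4 lower in 5 and higher in 1. On day 5, 8 of the 12 were lower and 1 higher with ARA-C at 0.17 uM (38% of all probe sets lower). The same counts held with doxorubicin at 119.76 nM (37.9%). Among targets of PERK and ATF4, PPP1R15A, the phosphatase subunit that restores translation, was higher in 11, by 2.40 with doxorubicin at 119.76 nM on day 5. With ARA-C at 0.34 uM at 24 hours 8 of 13 PERK and ATF4 targets were higher and 0 lower (median 1.02, against 0.20 over all probe sets, of which 6.66% were higher), among them DDIT4 by 2.60, ATF3 by 1.76 and CHAC1 by 1.68. That was the group in which HERPUD1, DNAJB9 and XBP1 were also higher and the other 7 of the 10 genes were not called, while 2 of 21 folding genes were called higher. On day 5 these targets were mostly lower with ARA-C at 0.17 uM (10 lower and 2 higher, median -0.75), doxorubicin at 59.88 nM (8 and 1, median -0.76) and doxorubicin at 119.76 nM (9 and 1, median -1.71), where 38%, 29.2% and 37.9% of all probe sets were lower, and DDIT4 was at -2.89 in the last group. With doxorubicin at 119.76 nM at 3 days 8 were lower and 3 higher (median -0.75; 11.1% and 11.5%). No difference between lists was tested.

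Across the 17 comparisons with vehicle, which share vehicle arrays within each time, the changes of XBP1, PDIA4 and HERPUD1 were the most like those of the other members, with median Pearson correlations of 0.813, 0.782 and 0.708. HERPUD1 ran with SEL1L at 0.94 and with XBP1 at 0.939. At their brightest probe sets CALR and HSP90B1 were the least like the others, at 0.098 and 0.387. Of 7816 other genes, the 5 whose changes were most like the median of the 10 were PTPN4 (0.9664), TMEM47 (0.9583), UBE4B (0.9538), DIXDC1 (0.9529) and TMED10 (0.9519), over the same 17 comparisons.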

How the data were processed

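The authors hybridized RNA of A673 cells, prepared from 2 µg per sample, to 68 arrays and deposited 1 intensity per probe set and array, a linear MAS5 signal scaled to a common array mean. The MAS5 version and detection calls are not given in the sources used here. Of 22930 probe sets, 715 controls were set aside and 22215 tested, of which 19230 had 1 gene symbol, 125 several and 2860 none. Signals under 10 were raised to 10, log2 was taken of the deposited signals, and 21 group means were fitted over 67 arrays in limma 3.58.1 (R 4.3.3) with an intensity trend and Benjamini-Hochberg adjustment over all probe sets in each comparison. Residual degrees of freedom were 46. There were 17 comparisons with vehicle, 9 of compounds, 8 of dose and 2 of vehicle times. The 10 genes and all lists were chosen with earlier results of these data known. Every member is described. Other genes named from the lists by role are, except for ATF4, among those with the most calls in their list, and not all such genes are named. The comparison of ARA-C doses each against vehicle of its own plate part and the fits over time, between plate parts and with the beta-actin ratio were added after seeing the data. The fit was tested on simulated data. The number of arrays limits the precision.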

Additional observations from a re-analysis of the deposited data

Results flagged for a closer look

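The EC50 effect differed between day 5 and 24 hours, by an interaction term in limma, for 8 of the 10 genes with ARA-C and 4 with doxorubicin. For ARA-C at 0.17 uM the difference was -1.67 for XBP1 (adjusted p = 0.000147), -1.41 for PDIA4 (adjusted p = 4.53e-10), -1.36 for HERPUD1 (adjusted p = 3.21e-05), -1.36 for SEL1L (adjusted p = 0.000165), -1.04 for SDF2L1 (adjusted p = 0.000404), -0.99 for DNAJB9 (adjusted p = 0.00169), -0.82 for PDIA6 (adjusted p = 0.000272) and -0.59 for HSPA5 (adjusted p = 0.00141). For doxorubicin at 59.88 nM it was -1.44 for XBP1 (adjusted p = 0.00118), -1.06 for SEL1L (adjusted p = 0.00391), -0.96 for HERPUD1 (adjusted p = 0.00331) and -0.56 for PDIA4 (adjusted p = 0.00488). Within rows A-F XBP1 and SEL1L with doxorubicin were -0.89 (adjusted p = 0.0874) and -0.56 (adjusted p = 0.21) and DNAJB9 with ARA-C was -0.64 (adjusted p = 0.094), none of them past the threshold, while SDF2L1 with doxorubicin was -0.81 (adjusted p = 0.000296). The beta-actin ratio was also higher on day 5 than at 24 hours in both compounds' arrays, and its part in these differences was not tested.

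The array left out, puromycin at 0.09 uM on day 5, carried high signals for 3 of the 10 genes in data that no comparison used. Its CALR signal was 8745, its DNAJB9 signal 6033 and its SEL1L signal 2888, while PDIA4 was at 257.3, SDF2L1 at 76.32 and XBP1 at 283.6. The same array had HBA1 at 28680 and PTPRC at 3842, where no other array exceeded 60.4 and 120.3, and it correlated with the rest at a median of 0.6028, where the lowest such value of any other array was 0.8871.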

How the results depend on the processing

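The fit with plate part as a block turned no direction among the 10 genes that was a call. A floor of 32, no floor or a cap of 16000 could turn none, as the fitted signals of these genes ran from 250.2 to 13080. Fits with dim probe sets left out or no intensity trend could turn none either, as they change only the spread and the adjustment. Where no share of all tests stands beside a count in this section, the count cannot tell a shift of these genes from one of the whole array. With quantile normalization calls rose to 13 higher for ARA-C, 2 higher for puromycin and 6 over vehicle times, and these turned: HSP90B1 (-0.089), DNAJB9 (-0.60) and SDF2L1 (-0.16) for puromycin minus ARA-C on day 5, CALR (0.51) and DNAJB9 (0.17) with doxorubicin at 119.76 nM on day 5, and DNAJB9 (0.46) and SDF2L1 (0.18) with ARA-C at 0.17 uM on day 5. Scaling to a common median gave 1 call higher for doxorubicin, 2 higher and 2 lower for puromycin, 12 for puromycin minus doxorubicin and 1 over vehicle times, and turned HSP90B1 with ARA-C at 0.17 uM on day 5 (0.11), PDIA4 with puromycin at 0.09 uM on day 5 (0.059) and PDIA4 in the ARA-C dose comparison at 24 hours (-0.014). The median change of all probe sets with ARA-C at 0.17 uM on day 5 was -0.28 as deposited, 0.00 after quantile normalization and 0.14 with a common median, and -0.14, 0.00 and 0.34 for puromycin at 0.09 uM.

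With all deposited arrays there were 2 calls higher and 6 lower for ARA-C, 0 higher and 18 lower for doxorubicin, 0 for doxorubicin minus ARA-C, 3 for puromycin minus ARA-C, 11 for dose and 1 over vehicle times. On day 5 puromycin minus ARA-C then turned for HSPA5 (-0.28), HSP90B1 (-0.44), PDIA4 (-0.0072), PDIA6 (-0.21) and SDF2L1 (-0.71), and puromycin minus doxorubicin for PDIA4 (-0.72), DNAJB9 (0.083) and SDF2L1 (-0.49). Plate part as a block gave 1 higher for doxorubicin and 2 higher for puromycin. Vehicle arrays of the same plate part gave 1 higher for doxorubicin (7.27% of all tests). For puromycin they gave 1 higher and 4 lower (1.7% and 6.08%). HERPUD1 with ARA-C at 0.34 uM on day 5 then turned to -0.45. Without the intensity trend puromycin had 5 lower.

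The beta-actin covariate gave 12 higher for ARA-C (11.2% of all tests) and 9 higher for puromycin (5.57%). It also gave 12 for doxorubicin minus ARA-C, 4 for puromycin minus ARA-C, 13 for puromycin minus doxorubicin, 10 for dose and 5 over vehicle times. It turned DNAJB9 with doxorubicin at 119.76 nM on day 5 (0.15), SEL1L (0.048) and XBP1 (0.20) between the doxorubicin doses on day 5 and SEL1L with puromycin at 0.09 uM at 24 hours (0.43). With the plate part added these were 0.16, 0.028, 0.16 and 0.47, with 12 higher for ARA-C, 1 higher for doxorubicin, 8 higher and 5 lower for puromycin, 12 for doxorubicin minus ARA-C, 14 for puromycin minus doxorubicin, 9 for dose and 5 over vehicle times. Other probe sets turned CALR (-0.61 and -0.070 with ARA-C at 0.17 uM at 24 hours, -0.045 and -0.18 with doxorubicin at 119.76 nM at 3 days, 0.26 with puromycin at 0.18 uM at 3 days), PDIA4 (0.015 with doxorubicin at 59.88 nM at 24 hours, 0.18 and 0.98 with puromycin at 0.09 uM at 3 and 5 days, 0.25 at 0.18 uM at 3 days) and HSP90B1 (0.26 with ARA-C at 0.17 uM on day 5). The cause was not tested in any of these.

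Leaving out 1 array at a time gave 5 to 8 calls higher and 11 to 13 lower for ARA-C, 1 to 2 higher and 26 to 29 lower for doxorubicin, 0 higher and 6 to 9 lower for puromycin, 5 to 7 for doxorubicin minus ARA-C, 5 to 9 for puromycin minus ARA-C, 2 to 7 for puromycin minus doxorubicin, 15 to 20 for dose and 2 to 4 over vehicle times. Replicate numbers did not pair the samples: deviations of same-numbered treated and vehicle arrays correlated between -0.0989 and 0.1136 (43 pairs). With the replicate number as a block there was 1 call higher for doxorubicin and 2 higher and 5 lower for puromycin, and the other counts stayed within 1.5 times.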
